A study of Mus musculus with 20 samples.

Results

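Benzo[a]pyrene (B[a]P) was compared with its solvent DMSO in control-grown cells of the mouse hepatoma line Hepa-1 at passage 20. B[a]P is a combustion product and a ligand of the aryl hydrocarbon receptor (AHR). The 4 libraries were chosen from the labels, out of 20 in the series. They are 2 libraries of cells given B[a]P for 8 hours and 2 libraries of cells given DMSO for 8 hours. All 4 come from cells passaged every 3 days in alpha-MEM with 5% serum and never grown with hexavalent chromium, Cr(VI). The other 16 libraries hold the same comparison in control-grown cells of passage 25, in Cr(VI)-grown cells of passages 20 and 25, and in recovered cells of passage 25, from which Cr(VI) had been withdrawn for the last 5 passages after 20 in its presence. The labels print 5 mM for B[a]P and 0.5 mM for Cr(VI), a unit that sits oddly with the low concentrations named in the series title, so both are given here only as labelled. The cells are 1 established line, and the labels do not say whether the duplicates were separate dishes, so every p-value below measures only the spread between these libraries.

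In resting cells AHR sits in the cytoplasm with HSP90 and PTGES3. A ligand sends it to the nucleus, where it pairs with ARNT and binds response elements with the core GCGTG, and Cyp1a1 is its best known target. CYP1 enzymes oxidise B[a]P, and 1 of the products, a diol epoxide, binds guanine in DNA. Such bulky adducts can stall polymerases, are removed by nucleotide excision repair and activate p53. Quinones made from B[a]P cycle between oxidised and reduced forms, and the transcription factor NRF2, held back by KEAP1, switches on the genes that answer oxidants and electrophiles.

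The stretches of DNA just upstream of 3 genes are shown, Cyp1a1 because it had the largest rise among the AHR targets, and Gm3776 and Gm10639 because they are near-copies that rose together and whose reads may have been split between them. They are RefSeq sequences of build GRCm38.p6, the assembly also called mm10, all on the plus strand and ending at the base before the start used by the RefSeq promoter table. For Cyp1a1 that start lies inside the span annotated for the gene, chr9:57687928-57703824. In Cyp1a1 (chr9:57697363-57697612) the capitals mark the 1 copy of GCGTG, whose first base lies 54 bases before the start. In Gm3776 (chr9:78256879-78257128) and Gm10639 (chr9:78289678-78289927), predicted genes of the glutathione S-transferase alpha cluster, the capitals mark the bases that an alignment of the pair did not match.
Cyp1a1: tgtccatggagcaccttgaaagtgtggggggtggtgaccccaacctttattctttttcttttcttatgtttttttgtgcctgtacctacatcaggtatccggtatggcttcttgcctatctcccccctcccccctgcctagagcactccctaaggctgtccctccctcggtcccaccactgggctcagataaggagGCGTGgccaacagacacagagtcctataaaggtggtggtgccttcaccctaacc
Gm3776: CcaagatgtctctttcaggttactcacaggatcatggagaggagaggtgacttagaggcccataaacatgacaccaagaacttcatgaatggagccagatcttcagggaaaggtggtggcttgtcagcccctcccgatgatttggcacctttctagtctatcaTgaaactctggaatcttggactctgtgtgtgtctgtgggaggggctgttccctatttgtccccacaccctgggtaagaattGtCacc
Gm10639: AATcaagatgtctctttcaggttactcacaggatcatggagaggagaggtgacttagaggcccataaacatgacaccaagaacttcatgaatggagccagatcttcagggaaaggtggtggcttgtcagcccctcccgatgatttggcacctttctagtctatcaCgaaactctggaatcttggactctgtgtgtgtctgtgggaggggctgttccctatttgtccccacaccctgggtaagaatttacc
The Gm3776 and Gm10639 stretches were 97.6% identical, and neither held GCGTG on either strand. The GCGTG core is common in such windows, as the motif counts further down show, so a match describes the letters and not a site of binding.

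Total counts were 31535617 and 33113295 in the B[a]P libraries and 20976045 and 29358216 in the DMSO libraries. Of the genes with at least 50 counts over a pair of duplicates, 0.253% differed by more than 2-fold between the B[a]P duplicates and 0.225% between the DMSO duplicates, and in the other 8 groups of the series between 0.840% and 57.8%. The duplicates still differed by more than sampling noise, with a mean chi-square per gene of 15.7 for B[a]P and 2.86 for DMSO, and each was counted as a library of its own. Of the proteins that hepatocytes secrete, 14 of 18 were tested and their summed level was 3227 and 3192 CPM with B[a]P and 3243 and 3144 CPM with DMSO, so the 4 libraries hardly differed in it. That sum hides moves in both directions, since 3 of the 14 rose and 6 fell, against 30.0% and 30.3% of all genes. Of the regulators that define hepatocytes, Cebpa had no count in any of the 4 libraries, and the apolipoprotein gene Apoa1 had at most 1 count in a library. Cholangiocyte markers, with 4 of 6 tested, summed to 1091 and 1187 CPM with B[a]P and 1606 and 1603 CPM with DMSO, most of it the keratin Krt7, while Epcam and Cftr had at most 8 counts in a library. Stellate cell and fibroblast markers, with 6 of 8 tested, summed to 838 and 801 CPM with B[a]P and 1203 and 1121 CPM with DMSO. Macrophage markers, with 5 of 8 tested, summed to 106 and 113 CPM with B[a]P and 78.2 and 78.8 CPM with DMSO, with the leukocyte gene Ptprc at 2 to 4 counts and the Kupffer cell genes Clec4f and Marco at 0. Endothelial markers, with 2 of 7 tested, summed to at most 4.70 CPM. Of the 5 macrophage markers tested 3 rose and 1 fell, and of the 6 stellate cell and fibroblast markers 1 rose and 5 fell. Of the 4 cholangiocyte markers 3 fell and none rose, and of the 2 endothelial markers 1 fell. Of all genes 30.0% rose and 30.3% fell. Among the macrophage genes Cd68 and Csf1r, and among the stellate cell genes Des, rose over 1.5-fold, while Pdgfrb, Krt19 and Sox9 fell over 1.5-fold. The part of such cells in the results was not tested, and in such bulk libraries fewer cells of a type and less RNA per cell cannot be told apart.

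After filtering on low counts, 13480 genes were tested in the 4 libraries. B[a]P changed 8133 of them (60.3%) at an adjusted p under 0.05, of which 4046 (30.0%) were higher and 4087 (30.3%) lower. The 2 groups did not overlap in CPM, with B[a]P above DMSO, in 5573 genes (41.3%), and with B[a]P below DMSO in 5375 (39.9%). With duplicates so close, small differences passed, and a test against a change of 1.5-fold was therefore run as well. It left 2231 genes (16.6%), of which 836 (6.20%) were higher and 1395 (10.3%) lower. These are the genes called over 1.5-fold below. A fit to all 20 libraries was also run, whose spread includes groups with far less similar duplicates. With a term for the replicate number within each passage it passed 1917 of 14343 genes in this comparison. The 20-library fit named below leaves that term out, and so calls far fewer genes. It passed 177 of 14343 genes (1.23%), and all 177 were also past the threshold in the 4-library fit. They make up 1.31% of the genes tested, with 74 (0.549%) higher and 103 (0.764%) lower, and are called past both fits below. That count needed both duplicates of each group: it was 2 without B[a]P replicate 1, B[a]P replicate 2 or DMSO replicate 2, and 6 without DMSO replicate 1. Genes that rose over 1.5-fold took 7.84% and 8.40% of the counts in the B[a]P libraries, against 3.57% and 3.57% in the DMSO libraries. Genes that fell over 1.5-fold took 3.54% and 3.19% with B[a]P, against 7.59% and 7.42% with DMSO.

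**Figure D1:**
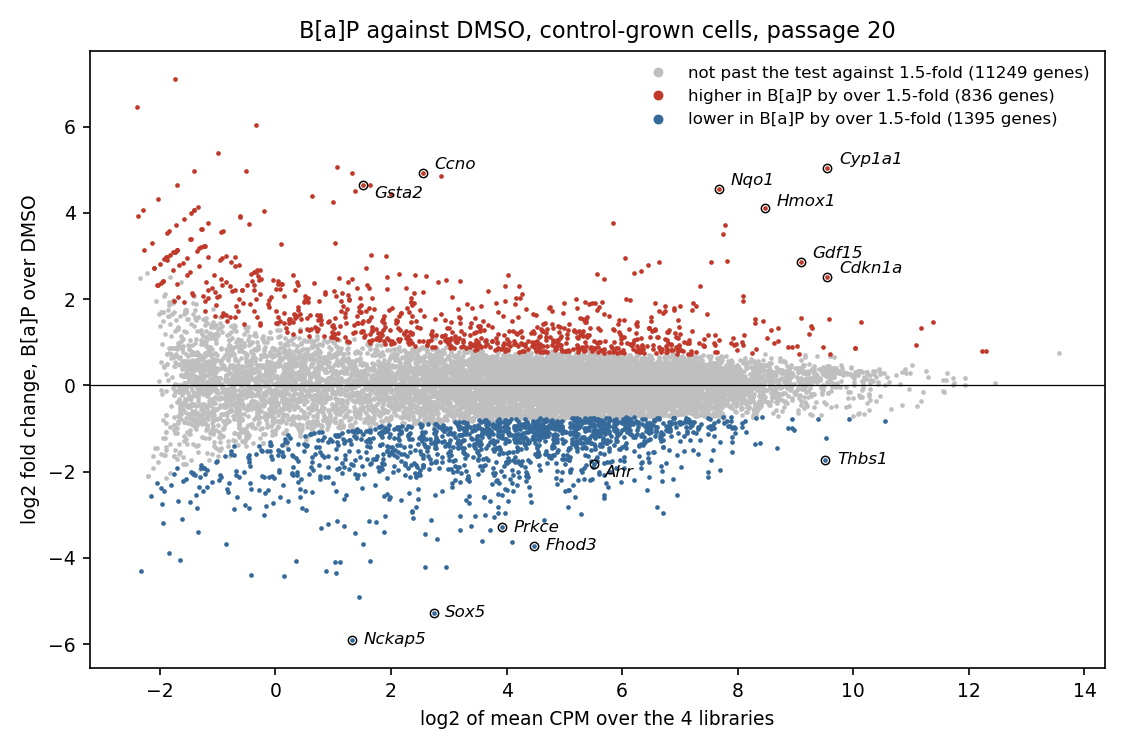
Log2 fold change of B[a]P over DMSO (vertical axis) against the log2 of the mean CPM over the 4 libraries (horizontal axis), 1 point per gene tested. Red points are the 836 genes higher and blue points the 1395 genes lower by over 1.5-fold in the 4-library test; Cyp1a1, Nqo1 and Hmox1 stand out among the rises at high levels, and Sox5 and Nckap5 among the falls.

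AHR target genes rose almost without exception. Cyp1a1, the enzyme that oxidises B[a]P, had 1445 and 1471 CPM in the B[a]P libraries, against 45.5 and 43.5 CPM in the DMSO libraries. The B[a]P duplicates were close to each other and far above both DMSO libraries. That is a 32.8-fold rise (log2 fold change 5.03, SE 0.08, adjusted p = 9.77e-11), past both fits. Per length, the level of Cyp1a1 was 523 CPM per kb of exon with B[a]P and 15.98 with DMSO. That of its neighbour Cyp1a2, at chr9:57676937-57683655, was 32.4 CPM per kb of exon with B[a]P and 10.9 with DMSO, and so was far below Cyp1a1 after B[a]P but close to it in DMSO. Cyp1a2, which oxidises arylamines, rose with 64.4 and 61.5 CPM with B[a]P and 21.2 and 20.95 CPM with DMSO, a 2.99-fold difference that was past both fits. Cyp1b1, another CYP1 enzyme, had 44.8 and 39.6 CPM with B[a]P and 11.8 and 12.1 CPM with DMSO and rose 3.52-fold. Tiparp, a mono-ADP-ribosyltransferase that AHR induces and that dampens AHR, had 85.0 and 73.3 CPM in the B[a]P libraries, against 20.6 and 21.02 CPM in the DMSO libraries. Its groups did not overlap and its rise was 3.80-fold. Both Cyp1b1 and Tiparp missed the threshold in the 20-library fit, with adjusted p of 0.591 and 0.690.

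The AHR list held 18 genes, of which 17 were tested. Of these, 16 rose, all by over 1.5-fold, and none fell, where 6.20% of all genes rose by over 1.5-fold, and 5 of the 16 were past both fits. The median log2 fold change of the list was 1.58, against 0.02 over all genes tested. The 1 gene that missed the threshold was Nfe2l2, which encodes NRF2, at 340.0 ± 18.3 CPM with B[a]P and 366 ± 9.66 CPM with DMSO (SD, n = 2 each) and an adjusted p of 0.183. Ahrr, the AHR repressor, was not tested because it had 2 and 1 counts with B[a]P and 2 and 1 with DMSO, which says nothing of its regulation at this depth. Nqo1, a quinone reductase under both AHR and NRF2, had 409.7 and 377 CPM in the B[a]P libraries, against 16.5 and 17.1 CPM in the DMSO libraries. The libraries of each group lay within a narrow range, and the rise was 23.4-fold (SE 0.08 on the log2 scale, adjusted p = 2.04e-10), past both fits. Aldh3a1, an aldehyde dehydrogenase, rose 11.4-fold, with 389 and 403 CPM with B[a]P and 35.3 and 34.4 CPM with DMSO. Xdh, xanthine dehydrogenase, rose 2.88-fold, with 198 and 174 CPM with B[a]P and 67.2 and 62.0 CPM with DMSO. The rest of the list, named here to complete it, had rises of 5.48-fold for the cytochrome P450 Cyp2s1, 2.87-fold for Htatip2, 1.96-fold for the aldehyde oxidase Aox1 and 1.65-fold for Ugdh, which makes the sugar donor of glucuronidation. The 3 members of the Ugt1a locus, Ugt1a6a, Ugt1a6b and Ugt1a7c, rose 2.36-, 2.36- and 2.45-fold, but they share exons, so these are not independent values.

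**Figure D2:**
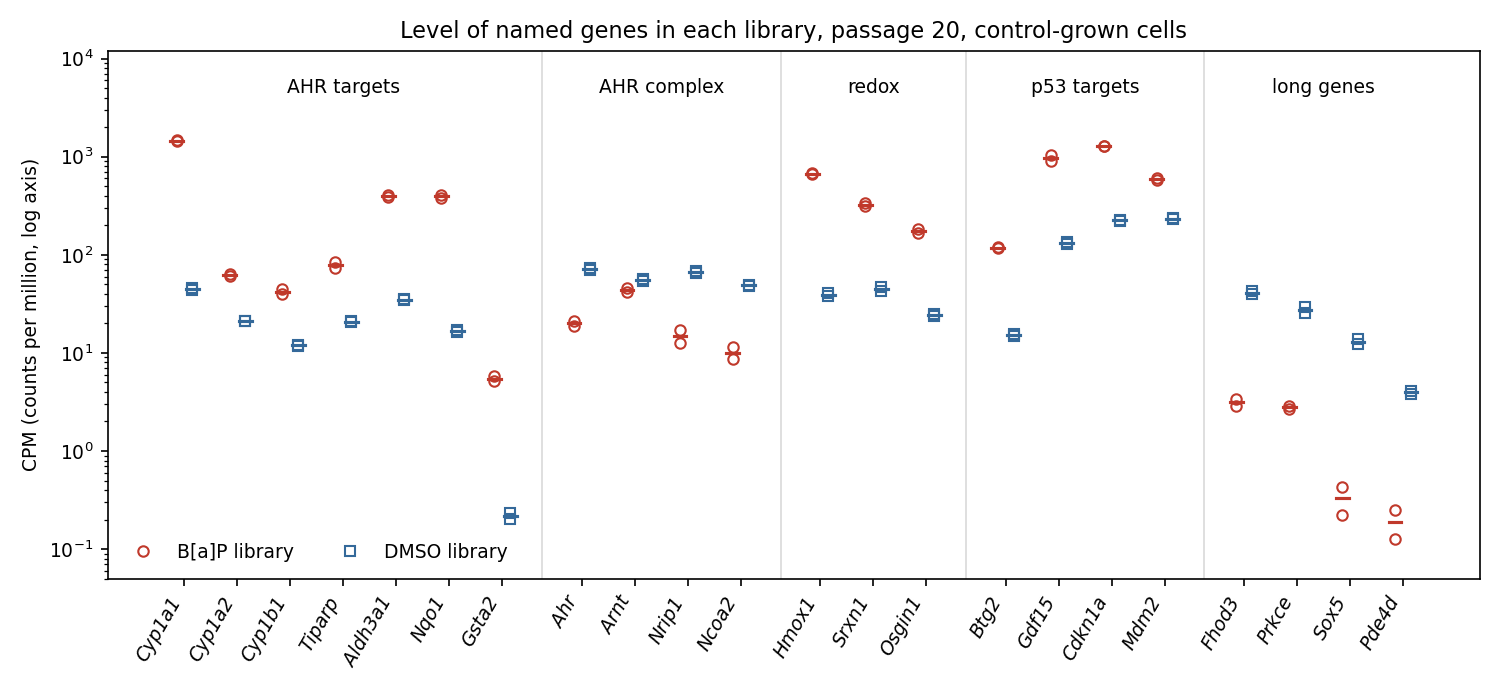
CPM of 22 named genes (log axis) in each B[a]P library (red circles) and each DMSO library (blue squares), with a line at the mean of each pair of libraries. In every gene shown the B[a]P and the DMSO libraries do not overlap. The same holds for 41.3% of all genes tested with B[a]P above DMSO and for 39.9% with B[a]P below. Cyp1a1 stands at 1445 and 1471 CPM with B[a]P, against 45.5 and 43.5 CPM with DMSO.

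A cluster of glutathione S-transferase alpha genes on chromosome 9, whose products conjugate electrophiles, was nearly silent in DMSO. Gsta1 (chr9:78230669-78242683) had 183 and 198 counts with B[a]P and 6 and 6 with DMSO, and Gsta2 (chr9:78331018-78347192) had 160 and 188 counts with B[a]P and 5 and 6 with DMSO. All 4 DMSO values lay at 6 counts or fewer. The fitted rises were 25.1-fold for Gsta1 (adjusted p = 1.88e-07) and 24.9-fold for Gsta2 (adjusted p = 2.68e-07). Gm3776 and Gm10639, the near-copies shown above, had 153 and 164 counts with B[a]P and 7 and 4 with DMSO, and 111 and 148 counts with B[a]P and 3 and 3 with DMSO. As ratios of summed counts per total, the Gm10639 rise was 33.6-fold with an exact 95% binomial counting interval of 15.2 to 92.4, which covers counting error only. The Gsta1 window matched that of Gm3776 over 89.7% of the alignment and that of Gsta2 over 71.4%, and how the counting program divided reads among the 4 genes is not given in the sources used here, so their separate folds are uncertain. The counts of 2 further alpha genes were far higher. Gsta4, also on chromosome 9, had 132 and 143 CPM with B[a]P and 21.3 and 22.4 CPM with DMSO and rose 6.29-fold. Gsta3, which lies on chromosome 1 and so outside the cluster, had 72.2 and 74.4 CPM with B[a]P and 19.0 and 19.98 CPM with DMSO and rose 3.75-fold. Gsta1, Gsta2, Gsta3, Gm3776 and Gm10639 were past both fits, and Gsta4 was not (adjusted p = 0.174 with all 20 libraries).

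The receptor itself went the other way. Ahr had 21.3 and 18.7 CPM in the B[a]P libraries, against 72.7 and 69.3 CPM in the DMSO libraries. Both B[a]P libraries lay far below the lower DMSO library, and the fall was 3.55-fold (log2 fold change -1.83, SE 0.09, adjusted p = 7.97e-08). With all 20 libraries its adjusted p was 0.638. Arnt, the partner of AHR, had 45.8 and 41.4 CPM with B[a]P and 57.3 and 54.3 CPM with DMSO and fell 1.28-fold. Among the 14 genes of the AHR complex and its coactivators, 9 fell and 2 rose, with 6 of the falls over 1.5-fold, where 10.3% of all genes fell by over 1.5-fold, and none was past both fits. Beside Ahr, the deepest falls over 1.5-fold were in Ncoa2, Nrip1 and Ncoa1, which encode coregulators of nuclear receptors. Ncoa2 had 11.4 and 8.61 CPM with B[a]P and 49.3 and 48.0 CPM with DMSO, Nrip1 had 17.0 and 12.5 CPM with B[a]P and 65.6 and 67.5 CPM with DMSO, and Ncoa1 had 3.96 and 2.76 CPM with B[a]P and 10.999 and 11.8 CPM with DMSO. In all 3 genes both B[a]P libraries were far below both DMSO libraries. Hsp90aa1, which encodes a form of HSP90, rose 1.26-fold, which did not pass the test against 1.5-fold. The median span of these genes on the chromosome was 64.4 kb, against 21.04 kb over all genes tested, a feature taken up with the long genes below.

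Genes of the oxidant response also rose. Of 27 listed NRF2 genes, 25 were tested, 23 rose and 1 fell, with 17 of the rises over 1.5-fold and 5 past both fits, where 30.0% of all genes rose and 6.20% rose over 1.5-fold. The median log2 fold change was 1.17. Hmox1, heme oxygenase, had 659 and 687 CPM in the B[a]P libraries, against 40.5 and 37.8 CPM in the DMSO libraries. This 17.2-fold rise (SE 0.08 on the log2 scale, adjusted p = 2.04e-10) was past both fits, with the duplicates of each group close together. Srxn1, sulfiredoxin, had 339 and 310.5 CPM with B[a]P and 46.9 and 42.9 CPM with DMSO, and Osgin1, an oxidative stress growth inhibitor, had 167 and 183 CPM with B[a]P and 24.8 and 23.5 CPM with DMSO. They rose 7.24- and 7.26-fold and were past both fits. Gclm and Gclc, the subunits of the enzyme that starts glutathione synthesis, are named here to complete the picture of that pathway and rose 4.18- and 3.58-fold. Ferritin rose in both chains, with Ftl1 at 3066 and 3508 CPM with B[a]P and 1339.7 and 1287 CPM with DMSO. Fth1 had 2769 and 2951 CPM with B[a]P and 1535 and 1449.7 CPM with DMSO. In both genes the groups did not overlap, as in 41.3% of all genes tested with B[a]P above DMSO. The exception was Abcc4, an efflux pump of the MRP family, which fell 1.27-fold, and Me1, malic enzyme, at 145 ± 1.23 CPM with B[a]P and 148 ± 3.13 CPM with DMSO (SD, n = 2 each), missed the threshold. Among the 8 regulators of NRF2, the small MAF proteins Mafk (a mean of 135 CPM with B[a]P and 61.8 CPM with DMSO) and Maff (a mean of 85.2 CPM with B[a]P and 40.5 CPM with DMSO) and the inhibitor Keap1 (a mean of 168 CPM with B[a]P and 96.4 CPM with DMSO) rose over 1.5-fold. Bach1, a repressor of the same elements, rose 1.40-fold, which did not pass the test against 1.5-fold.

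Conjugation genes mostly rose. Of all genes tested, 30.0% rose and 30.3% fell, and 6.20% rose over 1.5-fold. Of 35 tested genes for glucuronidation, glutathione transfer, hydrolysis and export, 25 rose and 4 fell, with 20 rises over 1.5-fold and 3 past both fits. Of these rises 7 were in Ugt1a genes, with log2 fold changes of 1.24 to 1.33, and because these genes share exons they may amount to 1 measurement. Gstp1 and Gstp2 likewise rose 2.92- and 2.97-fold and are close copies. All 4 falls were in ABC efflux pumps, named here because they stand against the list: Abcb1a, Abcc4, Abcc5 and Abcg2 fell by 0.32, 0.34, 0.33 and 0.43 on the log2 scale, none past the test against 1.5-fold. Among 19 aldehyde and alcohol oxidising enzymes 15 rose and 2 fell, with 5 rises over 1.5-fold. Adh7, an alcohol dehydrogenase that also handles retinol, had 427 and 390.1 CPM in the B[a]P libraries, against 31.1 and 31.2 CPM in the DMSO libraries. Its 13.1-fold rise did not pass in the 20-library fit (adjusted p = 0.0930). Aox3, an aldehyde oxidase, had 9.74 and 8.46 CPM with B[a]P and 1.46 and 1.61 CPM with DMSO, rose 5.88-fold and was past both fits.

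Targets of p53 rose as a group. All 30 listed genes were tested, 26 rose and 1 fell, with 22 rises over 1.5-fold and 5 past both fits, where 30.0% of all genes rose and 6.20% rose over 1.5-fold. The median log2 fold change was 1.18. Cdkn1a, which encodes the cyclin-dependent kinase inhibitor p21, had 1271 and 1288 CPM in the B[a]P libraries, against 224 and 223 CPM in the DMSO libraries. The B[a]P libraries were far above the DMSO libraries and almost equal to each other, and the rise was 5.72-fold (SE 0.07 on the log2 scale, adjusted p = 2.43e-09). Btg2, an antiproliferative gene, had 116 and 118.8 CPM with B[a]P and 15.7 and 14.8 CPM with DMSO and rose 7.71-fold. Gdf15, a secreted stress cytokine, had 895 and 1029.9 CPM with B[a]P and 135 and 130.0 CPM with DMSO. Plk3, a stress-responsive kinase, had 123.6 and 130.4 CPM with B[a]P and 20.4 and 21.1 CPM with DMSO. In each of these the duplicates were close and the groups lay far apart. Fas, a death receptor, had 37.1 and 35.0 CPM with B[a]P and 12.8 and 14.1 CPM with DMSO. These 5 genes were past both fits, with Cdkn1a at an adjusted p of 0.0492 in the 20-library fit. Mdm2, the ubiquitin ligase that degrades p53, had 600.5 and 585 CPM with B[a]P and 229 and 238 CPM with DMSO and rose 2.53-fold, while its adjusted p with all 20 libraries was 0.9999. Trp53 itself had 235 and 239.7 CPM with B[a]P and 261 and 253 CPM with DMSO and missed the threshold (adjusted p = 0.123). Sesn1 was the gene that fell, 1.69-fold, and Ddb2, Gadd45a and Rrm2b missed the threshold. Within the BCL2 family and death receptors, 9 of 17 rose and 4 fell, against 30.0% and 30.3% of all genes. The proapoptotic genes Pmaip1 (234 and 237 CPM with B[a]P and 64.0 and 61.4 CPM with DMSO) and Bmf (4.28 and 3.66 CPM with B[a]P and 1.27 and 1.57 CPM with DMSO) rose over 1.5-fold, and the antiapoptotic Bcl2 had 2.46 and 2.91 CPM in the B[a]P libraries, against 14.1 and 13.7 CPM in the DMSO libraries. Bcl2 fell 5.16-fold, and Bcl2l1, which encodes BCL-XL and is named here after its values were seen, fell 2.52-fold.

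Genes of cell division fell, mostly those of mitosis. Of 26 genes of G2 and mitosis, 24 fell and none rose, with 12 falls over 1.5-fold and none past both fits, where 30.3% of all genes fell and 10.3% fell over 1.5-fold. The list had a median log2 fold change of -0.67. Ect2, an exchange factor needed for cytokinesis, had 39.3 and 33.9 CPM with B[a]P and 95.4 and 95.03 CPM with DMSO, and Plk1, a kinase of mitotic entry, had 72.3 and 76.1 CPM with B[a]P and 186 and 179.8 CPM with DMSO. Both genes were lower by more than 2-fold in both B[a]P libraries. Bub1b of the spindle checkpoint fell 2.23-fold and the motor Cenpe 2.15-fold. Genes of DNA replication moved less. Of 27, 16 fell and 5 rose, against 30.3% and 30.0% of all genes. The 1 change over 1.5-fold was in Pola1, the catalytic subunit of polymerase alpha, at 33.2 and 30.1 CPM with B[a]P and 67.4 and 63.5 CPM with DMSO. Replication histones moved up here: 36 of 60 tested rose and none fell, where 30.0% of all genes and 42.1% of genes spanning under 3 kb rose. Only H3c14 and H3c15 rose by over 1.5-fold, where 6.20% of all genes did, and many histone genes share sequence. The median log2 fold change of the 60 was 0.39, and these are short genes, with a median span of 0.491 kb. No other comparison had a positive median for the list. It was -0.34 in Cr(VI)-grown cells of passage 20. At passage 25 it was -0.07 in control-grown, -0.83 in Cr(VI)-grown and -0.01 in recovered cells. Among the G1 genes, cyclin D1 (Ccnd1) had 739 and 702 CPM with B[a]P and 1237 and 1228 CPM with DMSO and Cdk6, its kinase partner, had 3.42 and 3.005 CPM with B[a]P and 15.1 and 15.3 CPM with DMSO, and both fell over 1.5-fold. Ccno, an atypical cyclin, rose 30.3-fold, with 10.5 and 12.2 CPM in the B[a]P libraries, against 0.329 and 0.402 CPM in the DMSO libraries. Ccno and Cdk6 were past both fits.

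Of 30 tested genes of base and nucleotide excision repair, 10 rose and 9 fell, which is near the shares of all genes (30.0% and 30.3%) and so no result about the list. The rises over 1.5-fold were in Ercc5 (130.3 and 137 CPM with B[a]P and 47.8 and 47.3 CPM with DMSO), an endonuclease that cuts beside bulky adducts, Xpa (23.0 and 23.9 CPM with B[a]P and 11.05 and 11.9 CPM with DMSO), which recognises them, and the glycosylase gene Mpg (29.0 and 32.1 CPM with B[a]P and 16.3 and 16.9 CPM with DMSO). Ung, which removes uracil, had 12.6 and 12.5 CPM with B[a]P and 25.1 and 25.3 CPM with DMSO and fell 2.01-fold. In break and crosslink repair 23 of 32 fell and 1 rose, with 11 falls over 1.5-fold, where 30.3% of all genes fell and 10.3% fell over 1.5-fold. The helicase gene Wrn had 4.95 and 2.76 CPM with B[a]P and 13.5 and 12.4 CPM with DMSO, Prkdc, the catalytic subunit of DNA-dependent protein kinase, had 6.45 and 5.27 CPM with B[a]P and 17.3 and 16.5 CPM with DMSO, Xrcc4 had 2.01 and 1.92 CPM with B[a]P and 6.16 and 5.22 CPM with DMSO, and the kinase gene Atm had 11.5 and 9.88 CPM with B[a]P and 25.1 and 25.1 CPM with DMSO. In each of these 4 genes both B[a]P libraries lay below both DMSO libraries, as in 39.9% of all genes tested. The rise was in Rad51c, named here because it stands alone, at 2.37 ± 0.282 CPM with B[a]P and 1.41 ± 0.135 CPM with DMSO (SD, n = 2 each). Of 7 mismatch repair genes 6 fell, 3 of them, Pms1, Msh3 and Pms2, by over 1.5-fold. Among 11 genes of translesion synthesis, Polk, the polymerase that bypasses bulky guanine adducts, had 50.5 and 47.2 CPM with B[a]P and 27.2 and 27.8 CPM with DMSO and rose 1.78-fold. Rev3l, the catalytic subunit of polymerase zeta, had 17.0 and 14.1 CPM in the B[a]P libraries, against 50.9 and 52.8 CPM in the DMSO libraries, and fell 3.33-fold. Polh, polymerase eta, had 19.1 and 17.2 CPM with B[a]P and 31.0 and 32.5 CPM with DMSO and fell 1.75-fold. None of the repair genes was past both fits.

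**Figure D3:**
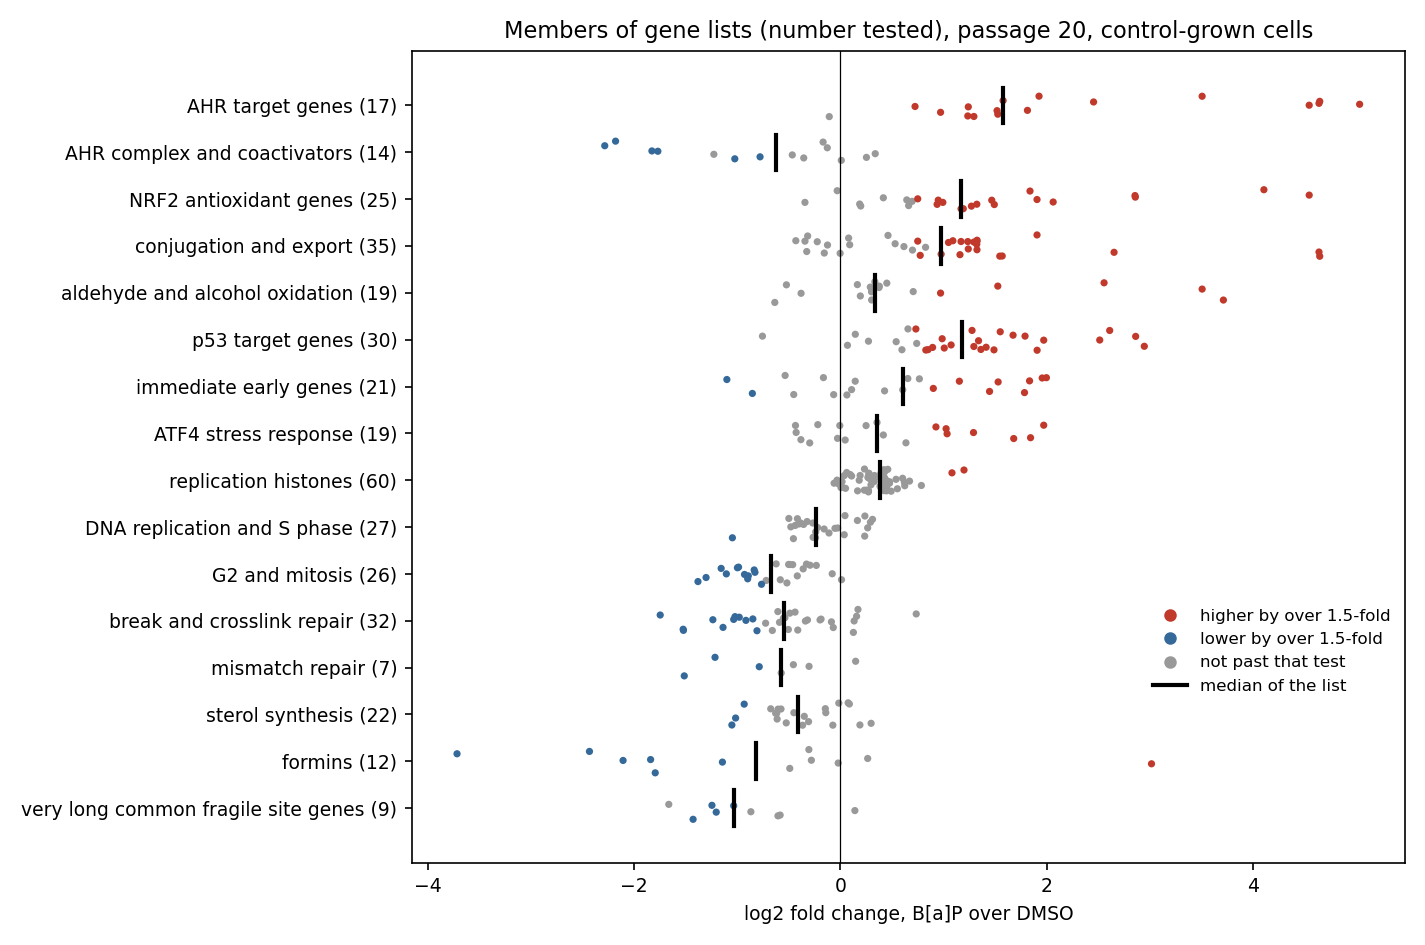
Log2 fold change of B[a]P over DMSO for every tested member of 16 gene lists, 1 point per gene, with a black bar at the median of the list and the number tested in parentheses. Red and blue points passed the test against 1.5-fold; AHR, NRF2 and p53 targets lie mostly to the right of 0, and mitosis, break repair and formin genes mostly to the left.

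Early response and stress genes moved in part. Of all genes tested, 30.0% rose and 30.3% fell, and 6.20% rose and 10.3% fell over 1.5-fold. Of 21 immediate early genes 12 rose and 5 fell, with 8 rises and 2 falls over 1.5-fold. Dusp1, a phosphatase of MAP kinases, had 107 and 108 CPM in the B[a]P libraries, against 25.5 and 28.2 CPM in the DMSO libraries. Its 3.99-fold rise and that of Zfp36, an RNA-binding protein that speeds messenger decay (56.1 and 59.0 CPM with B[a]P and 16.6 and 16.7 CPM with DMSO), were past both fits. The AP-1 genes Fos (24.7 and 25.2 CPM with B[a]P and 7.14 and 5.82 CPM with DMSO) and Fosl1 (201 and 201 CPM with B[a]P and 56.2 and 56.7 CPM with DMSO) rose 3.88- and 3.57-fold in the 4-library fit. Of 19 genes of the ATF4 response 11 rose and 5 fell, with 7 rises over 1.5-fold. Sesn2 (118.7 and 106 CPM with B[a]P and 28.7 and 28.6 CPM with DMSO), Ddit4 (163 and 174 CPM with B[a]P and 44.7 and 49.0 CPM with DMSO), Ppp1r15a (159 and 159 CPM with B[a]P and 51.0 and 48.4 CPM with DMSO) and Nupr1 (15.6 and 18.8 CPM with B[a]P and 7.57 and 6.59 CPM with DMSO) led it, and no member was past both fits. Endoplasmic reticulum chaperones rose slightly, 11 of 17, and of these only Dnajb9, at 31.3 and 31.1 CPM with B[a]P and 13.6 and 13.3 CPM with DMSO, by over 1.5-fold. Cytosolic heat shock genes were mixed, 5 of 11 higher and 2 lower, with Bag3 and Dnajb1 over 1.5-fold. The metallothioneins Mt1 (233 and 279.8 CPM with B[a]P and 133 and 126 CPM with DMSO) and Mt2 (88.8 and 109 CPM with B[a]P and 41.4 and 39.0 CPM with DMSO) rose 1.98- and 2.47-fold, and the zinc importer gene Slc39a10 fell 1.91-fold. Among 16 genes of hypoxia and glycolysis, the angiogenic factor Vegfa (149 and 153 CPM with B[a]P and 39.8 and 40.3 CPM with DMSO), Ndrg1 (42.8 and 42.3 CPM with B[a]P and 12.1 and 13.5 CPM with DMSO) and the glucose transporter Slc2a1 rose over 1.5-fold, and Hk2, hexokinase 2, fell 2.08-fold.

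Lipid synthesis genes mostly fell, and genes of proteins that hepatocytes secrete moved in both directions. Of 8 tested hepatocyte transcription factors 5 fell and 1 rose, with a median log2 fold change of -0.67. Of all genes tested, 30.3% fell and 30.0% rose, and 10.3% fell over 1.5-fold. Of 22 sterol synthesis genes 14 fell and 2 rose, but only 3 fell over 1.5-fold and none was past both fits. Among the 3 were Hmgcs1 (75.2 and 70.1 CPM with B[a]P and 149 and 152 CPM with DMSO) and Dhcr7. Of 10 genes of fatty acid synthesis 7 fell and none rose, with Gpam (0.990 and 1.18 CPM with B[a]P and 3.76 and 3.95 CPM with DMSO), Elovl6 (53.1 and 43.4 CPM with B[a]P and 119.3 and 117.7 CPM with DMSO) and Acaca (50.6 and 37.8 CPM with B[a]P and 103 and 100.3 CPM with DMSO) lower by over 1.5-fold. The nuclear receptor coactivators Ppargc1a (9.04 and 8.61 CPM with B[a]P and 29.4 and 30.3 CPM with DMSO) and Ppargc1b (0.671 and 0.589 CPM with B[a]P and 7.57 and 5.92 CPM with DMSO) fell 3.38- and 10.6-fold, and Ppargc1b was past both fits. In fat oxidation 6 of 12 rose and 3 fell, and Pdk4, a brake on pyruvate use, rose 2.04-fold. Alb had 1009.7 and 992 CPM with B[a]P and 1242 and 1186 CPM with DMSO, a fall of 1.21-fold, and Afp had 223 and 256 CPM with B[a]P and 165 and 168 CPM with DMSO, a rise of 1.44-fold, so these 2 hepatoma markers went in opposite directions by small amounts. Apoe, a lipid carrier, rose 2.96-fold at a low level (11.1 and 16.3 CPM with B[a]P and 4.56 and 4.69 CPM with DMSO), and the fibrinogen gene Fga (0.895 and 0.712 CPM with B[a]P and 2.30 and 1.94 CPM with DMSO) and the haptoglobin gene Hp (1.25 and 1.64 CPM with B[a]P and 3.29 and 3.65 CPM with DMSO) fell 2.61- and 2.41-fold. Of 12 clock genes 6 fell and 4 rose, against 30.3% and 30.0% of all genes, with Arntl (4.82 and 3.97 CPM with B[a]P and 18.0 and 18.5 CPM with DMSO), Per2 (2.20 and 1.92 CPM with B[a]P and 5.97 and 7.10 CPM with DMSO) and Clock (20.3 and 15.5 CPM with B[a]P and 35.0 and 36.1 CPM with DMSO) lower by over 1.5-fold. Among 17 interferon genes 7 rose and 4 fell, against 30.0% and 30.3% of all genes. The list had 1 change over 1.5-fold, where 16.6% of all genes had one, in Usp18 (a mean of 73.4 CPM with B[a]P and 40.0 CPM with DMSO), which removes ISG15 from proteins. Among 14 NF-kB and cytokine genes 7 fell and 4 rose, against 30.3% and 30.0% of all genes. Over 1.5-fold 2 fell and 1 rose, against 10.3% and 6.20% of all genes. Nfkb1 (72.4 and 69.9 CPM with B[a]P and 166 and 154 CPM with DMSO) and Nfkbie, an inhibitor of NF-kB, were the 2 lower. Tnfaip2 (81.5 and 80.5 CPM with B[a]P and 12.7 and 14.1 CPM with DMSO) was the 1 higher, and it was past both fits. Sox9, a progenitor and cholangiocyte regulator, had 45.8 and 43.8 CPM with B[a]P and 118.3 and 111 CPM with DMSO, fell 2.56-fold and was past both fits.

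Large movements in level were also seen in other genes. Ubb, a polyubiquitin gene, had a mean of 6086 CPM with B[a]P and 3492 CPM with DMSO, and its pseudogene Ubb-ps, with a mean of 6373 CPM with B[a]P and 3657 CPM with DMSO, may share reads with it. Gene ID 100861531, which the tables used here do not name, had 2661 and 5129 CPM with B[a]P and 1280.2 and 1539 CPM with DMSO, and its B[a]P duplicates differed by nearly as much as the groups. Among the 8 largest falls in level, Thbs1, the matrix protein thrombospondin 1, had 369 and 312 CPM in the B[a]P libraries, against 1163 and 1087 CPM in the DMSO libraries. Ezr, which links membrane to actin, had 1111 and 1067 CPM with B[a]P and 1990.4 and 1849.9 CPM with DMSO. Ccdc80, a matrix protein, had 456 and 428 CPM with B[a]P and 1044 and 1027 CPM with DMSO. These 3 genes fell 3.30-, 1.76- and 2.34-fold, with DMSO far above B[a]P. Actin Actb (1776 and 1883 CPM with B[a]P and 2668 and 2428 CPM with DMSO) and tubulin Tubb5 (1263 and 1343 CPM with B[a]P and 1923 and 1873 CPM with DMSO) fell 1.39- and 1.46-fold. In all 5 genes the B[a]P libraries lay below the DMSO libraries, as in 39.9% of all genes tested, and none was past both fits. The other 3 of these falls were in Scd2, Hnrnpa3 and gene ID 319269, which fell 1.38-, 1.58- and 1.28-fold.

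Among genes past both fits, the largest rises beside those already named were in Rhof, a small GTPase of filopodia (3.80 and 5.95 CPM with B[a]P and 0.188 and 0.134 CPM with DMSO), the zinc finger gene Zfp651 (2.97 and 4.65 CPM with B[a]P and 0.188 and 0.201 CPM with DMSO) and Tnnc2, a troponin (5.85 and 7.59 CPM with B[a]P and 0.799 and 0.870 CPM with DMSO). Rhof had 4 counts in each DMSO library and Zfp651 had 4 and 6, so their folds rest on few counts. The largest falls were in Nckap5, Sox5, Pknox2, Pde4d, Gm10532, Nos1ap, Fhod3, Epha4, Arhgap6, Arl15, Cdkal1 and Ppargc1b. Nckap5 had 2 and 3 counts with B[a]P and 102 and 152 with DMSO, a level 65.2-fold lower with B[a]P by summed counts per total, with an exact 95% counting interval of 27.6 to 203. Sox5, a transcription factor, had 0.224 and 0.434 CPM in the B[a]P libraries, against 13.9 and 12.2 CPM in the DMSO libraries. Fhod3, a formin that assembles actin, had 3.42 and 2.85 CPM in the B[a]P libraries, against 42.7 and 39.7 CPM in the DMSO libraries. In Fhod3 the B[a]P libraries held well over 50 counts each, and the fall was 13.1-fold (SE 0.11 on the log2 scale, adjusted p = 5.34e-09). Pde4d, a phosphodiesterase of cyclic AMP, had 0.128 and 0.248 CPM with B[a]P and 4.14 and 3.78 CPM with DMSO, and Epha4, an ephrin receptor, had 0.447 and 0.372 CPM with B[a]P and 5.41 and 5.22 CPM with DMSO. The GTPase-activating gene Arhgap6 had 1.66 and 1.95 CPM with B[a]P and 21.8 and 22.4 CPM with DMSO. The rule that picked these genes required that the groups did not overlap. The B[a]P libraries held at most 14 counts each of Nckap5, Sox5, Pde4d and Epha4. The 12 tested formins had a median span on the chromosome of 135 kb and a median log2 fold change of -0.82. In all genes of 100 to 316 kb that median was -0.80, and 76.3% fell and 46.3% fell over 1.5-fold. Of the 12 formins 8 fell and 2 rose, with 6 falls over 1.5-fold, where 30.3% of all genes fell and 10.3% fell over 1.5-fold. The formins thus did not stand out among genes of such span. Among the 6 were Fmnl2 (11.3 and 9.48 CPM with B[a]P and 53.9 and 58.2 CPM with DMSO) and Diaph2 (8.53 and 6.78 CPM with B[a]P and 33.2 and 32.7 CPM with DMSO). Daam2 went the other way, at 6.01 and 5.14 CPM with B[a]P and 0.705 and 0.669 CPM with DMSO. In the protein kinase C family Prkce had 2.88 and 2.70 CPM in the B[a]P libraries, against 29.5 and 25.2 CPM in the DMSO libraries, and fell 9.78-fold, past both fits. Prkca fell 2.68-fold.

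Several of these falling genes are long. Nckap5 spans 917 kb, Sox5 954 kb, Fhod3 425 kb and Arl15 363 kb from start to end on the chromosome, introns included. Genes were therefore grouped by this span, which was found for 13438 of those tested. The median log2 fold change was 0.25 for the 1051 genes under 3 kb, 0.25 for the 2716 of 3 to 10 kb, 0.13 for the 4770 of 10 to 32 kb, -0.20 for the 3392 of 32 to 100 kb, -0.80 for the 1281 of 100 to 316 kb and -1.51 for the 228 over 316 kb. Thus the median went down at each step above 10 kb. The share of genes that fell over 1.5-fold was 3.43% under 3 kb, 46.3% at 100 to 316 kb and 67.1% over 316 kb, and the share that rose over 1.5-fold was 9.23% under 3 kb, 1.09% at 100 to 316 kb and 0.877% over 316 kb. The median span was 109 kb for the genes that fell over 1.5-fold and 11.2 kb for those that rose. When the genes were split into 3 equal classes by mean CPM, the median went down at each step above 10 kb in every class, with medians over 316 kb of -1.51, -1.62 and -1.22 from the lowest to the highest class, the last over 20 genes only. Genes are not independent replicates, so these are descriptions without a test, and Spearman's rho between span and log2 fold change over the 13438 genes was -0.46. In the other comparisons rho was -0.27 in Cr(VI)-grown cells of passage 20, -0.18 in control-grown, 0.05 in Cr(VI)-grown and -0.07 in recovered cells of passage 25. Within pairs of equal replicate number it was -0.43 and -0.50 here, and -0.50 and 0.07 in Cr(VI)-grown cells of passage 20. At passage 25 it was -0.20 and -0.13 in control-grown, 0.14 and -0.09 in Cr(VI)-grown and 0.05 and -0.15 in recovered cells. Libraries of the same treatment thus also differed along span, and the part of such differences in the gradient here was not tested.

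The 9 tested genes of very long common fragile sites had a median span of 913 kb, and 6 fell and none rose. Of all genes 30.3% fell, and of all genes over 316 kb 81.6% fell. The median log2 fold change was -1.03 in the list and -1.51 in genes over 316 kb, so the list did not stand out among long genes. Of the 6 falls 4 were over 1.5-fold, where 10.3% of all genes and 67.1% of genes over 316 kb fell so far. The 4 were Exoc4 (26.3 and 18.0 CPM with B[a]P and 59.3 and 59.7 CPM with DMSO), Ptprg (28.5 and 22.8 CPM with B[a]P and 62.0 and 59.5 CPM with DMSO), Dmd (2.36 and 1.98 CPM with B[a]P and 5.55 and 4.55 CPM with DMSO) and Lpp (45.9 and 38.1 CPM with B[a]P and 83.2 and 88.6 CPM with DMSO). The other 15 listed genes of this kind had too few counts or no entry and were not tested. Among genes over 316 kb, 3 rose and are named here as exceptions. They were Mtus2 (94.7 and 100.2 CPM with B[a]P and 55.0 and 56.7 CPM with DMSO), the receptor tyrosine kinase gene Alk (1.15 and 1.18 CPM with B[a]P and 0.517 and 0.703 CPM with DMSO) and Marchf1 (0.958 and 1.27 CPM with B[a]P and 0.329 and 0.0335 CPM with DMSO), and the DMSO duplicates of Marchf1 rested on 7 counts and 1 count. The repair genes that fell over 1.5-fold include long ones, with Wrn spanning 151 kb, Prkdc 205 kb, Rev3l 144 kb and Xrcc4 241 kb, and the median span was 55.1 kb over the break repair list and 16.1 kb over the p53 list. Plk1, at 10.45 kb, Thbs1, at 15.3 kb, and Krt19, at 5.12 kb, are short genes that also fell over 1.5-fold.

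**Figure D4:**
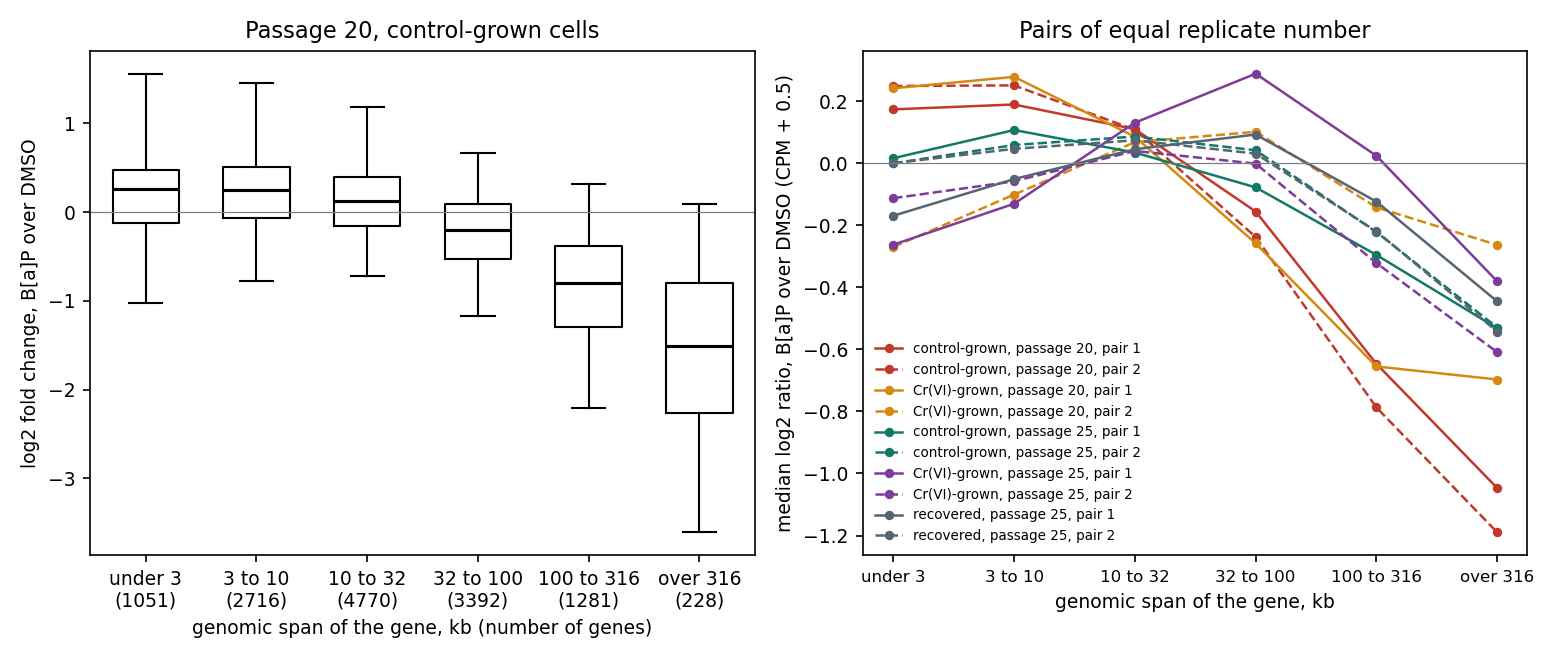
Left, log2 fold change of B[a]P over DMSO at passage 20 in control-grown cells by genomic span of the gene in kb, as boxes (quartiles, with the median as a line) and whiskers at the 5th and 95th percentiles, with the number of genes in parentheses. Right, median log2 ratio of B[a]P over DMSO in the same bins of span for each pair of equal replicate number in all 5 comparisons; the control-grown pairs of passage 20 end lowest, at -1.05 and -1.19 over 316 kb.

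Promoter windows of 250 bases were available for 10569 of the genes tested, 648 of those that rose and 1065 of those that fell over 1.5-fold. The AHR core GCGTG, on either strand, occurred in 46.1% of the windows of genes that rose, 50.9% of those that fell and 48.1% of all. The longer TNGCGTG, which contains it, occurred in 8.64% of windows of genes that rose, 8.26% of those that fell and 7.54% of all. TGACNNNGC, the core of the antioxidant response element that NRF2 binds, occurred in 15.4% of windows of genes that rose, 14.1% of those that fell and 13.7% of all. For the AP-1 site TGANTCA the shares were 8.33% in genes that rose, 7.04% in those that fell and 6.19% in all. For TGACGTCA, bound by CREB, they were 3.24% in genes that rose, 2.35% in those that fell and 2.91% in all, and for CCAAT 44.4%, 40.7% and 41.3% in the same sets. Among genes past both fits, with 64 windows of genes that rose and 72 of genes that fell, the shares lay further apart: TNGCGTG occurred in 6.25% of those that rose and 16.7% of those that fell, GCGTG in 43.8% of those that rose and 59.7% of those that fell, and TGACNNNGC in 18.8% of those that rose and 8.33% of those that fell. These sets are small and no test was made, and many known elements of these factors lie outside such a short window.

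The same genes can be read in libraries that took no part in this comparison, since the comparisons share no library. In Cr(VI)-grown cells of passage 20, the 836 genes that rose over 1.5-fold here had a positive log2 fold change in 98.0% of cases, against 41.9% of all genes tested, and of the 1395 that fell 99.3% were negative. The Cr(VI)-grown DMSO duplicates of that passage stood apart from each other, with 35.0% of genes over 2-fold different. In pair 1 of that comparison alone 98.0% of the first set were positive and 99.1% of the second set negative, and in pair 2 91.6% and 76.5%. In control-grown cells of passage 25, 84.4% of the first set were positive, against 46.2% of all genes, and 89.0% of the second set were negative. The passage 25 duplicates also stood apart, with 29.2% of genes over 2-fold different between the B[a]P libraries and 42.8% between the DMSO libraries. There 79.9% of the first set were positive and 85.3% of the second negative in pair 1, and 89.4% and 81.2% in pair 2. In Cr(VI)-grown cells of passage 25, 90.0% of the first set were positive, against 57.5% of all genes, and 67.5% of the second set were negative, with 57.7% in pair 1 and 90.2% in pair 2. In recovered cells the shares were 95.8% positive, against 53.4% of all genes, and 79.6% negative. The median log2 ratio of the genes that rose was 1.01 and 1.07 in the 2 pairs of this comparison, 0.81 and 0.63 in Cr(VI)-grown cells of passage 20 and 0.46 and 0.54 in control-grown cells of passage 25. For genes over 316 kb the median ratio was -1.05 and -1.19 here, -0.70 and -0.26 in Cr(VI)-grown cells of passage 20, and -0.53 and -0.53 in control-grown cells of passage 25. Across the 13480 genes, Pearson's r between the log2 fold changes here and elsewhere, all from the 20-library fit, was 0.81 for Cr(VI)-grown cells of passage 20, 0.53 for control-grown and 0.43 for Cr(VI)-grown cells of passage 25, and 0.54 for recovered cells. Genes are not independent, and no p is given.

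In the 20-library fit, B[a]P changed 7 genes (0.0488%) in control-grown cells of passage 25 and 6 (0.0418%) in Cr(VI)-grown cells of passage 20. That fewer genes passed does not show that the effects differed. No gene passed the edgeR test of the difference in B[a]P effect between passage 20 and passage 25 in control-grown cells, with 228 of 14343 at an unadjusted p under 0.05, while DESeq2 passed 11. None passed for the difference between control-grown and Cr(VI)-grown cells of passage 20 in edgeR, with 67 at an unadjusted p under 0.05, or in DESeq2. The 11 genes, named after their values were seen, are Dusp1, Gsta1, Gsta2, Gm3776, Gm10639, Tlcd2, Nuak1, Pdzrn3, Nedd4l, Cyp1a2 and Ccn2. On the scaling of all 20 libraries, Gsta1 at passage 25 had 0.646 and 0.396 CPM with B[a]P and 0.763 and 0.629 CPM with DMSO, and at passage 20 4.91 and 5.11 CPM with B[a]P and 0.237 and 0.169 CPM with DMSO. In Cr(VI)-grown cells of passage 20 it had 3.74 and 3.51 CPM with B[a]P and 0.265 and 0.498 CPM with DMSO. So the B[a]P libraries were high at passage 20 in both growth histories and not at passage 25 in control-grown cells. Dusp1 had 45.1 and 47.0 CPM with B[a]P and 45.1 and 47.9 CPM with DMSO at passage 25, where the groups overlapped. Its log2 fold change was 1.99 (SE 0.27) at passage 20 and -0.01 (SE 0.26) at passage 25, and the adjusted p of the difference was 0.841 in edgeR and 3.29e-06 in DESeq2. Cyp1a2 had 42.3 and 61.1 CPM with B[a]P and 4.17 and 3.77 CPM with DMSO at passage 25, and 54.0 and 51.2 CPM with B[a]P and 17.8 and 17.6 CPM with DMSO at passage 20. Its DMSO libraries were the lower ones at passage 25, its log2 fold changes were 3.70 at passage 25 and 1.57 at passage 20, and the adjusted p of the difference was 1.00 in edgeR and 0.0499 in DESeq2. Cyp1a1 was high after B[a]P in every setting, with log2 fold changes of 5.03 (SE 0.49) here, 4.63 (SE 0.49) in Cr(VI)-grown cells of passage 20, 5.46 (SE 0.50) in control-grown cells of passage 25, 5.65 (SE 0.51) in Cr(VI)-grown cells of passage 25 and 5.78 (SE 0.51) in recovered cells. For Ahr the log2 fold change was -1.83 (SE 0.98) here, -1.41 (SE 0.97) in Cr(VI)-grown cells of passage 20 and -0.39 (SE 0.95) at passage 25.

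**Figure D5:**
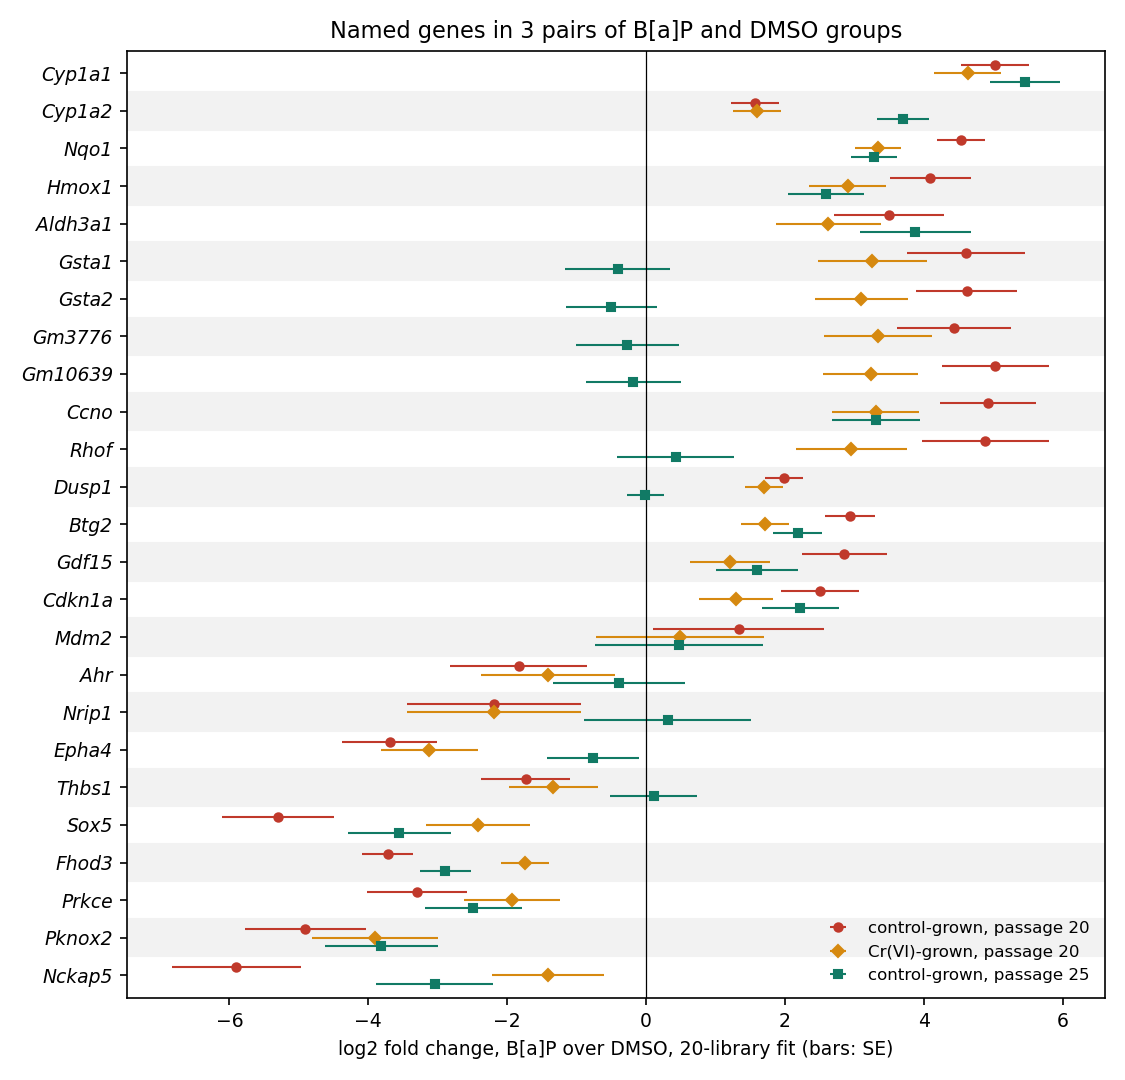
Log2 fold change of B[a]P over DMSO with its SE (bars) from the 20-library fit for 25 named genes in control-grown cells of passage 20 (red circles), Cr(VI)-grown cells of passage 20 (orange diamonds) and control-grown cells of passage 25 (green squares). Cyp1a1 lies between 4.63 and 5.46 in all 3, while Gsta1, Gsta2, Gm3776, Gm10639 and Dusp1 are high at passage 20 and near 0 or below at passage 25.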

How the data were processed

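RNA of 20 libraries was sequenced, and this text uses the 2 B[a]P and 2 DMSO libraries of control-grown cells of passage 20, with the other 16 for fits and comparison. The deposited values are raw read counts per gene, made by the authors with CASAVA 1.8, TopHat and build mm10, per the submitters' processing notes, which also name DESeq. How reads were assigned to genes (program, annotation, strand) is not given in the sources used here. In all, 23373 Entrez gene IDs are listed, of which 23275 matched a RefSeq symbol. Total counts of the 4 libraries lay between 20976045 and 33113295.

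Counts were scaled by TMM and tested by edgeR's quasi-likelihood test (edgeR 4.0.16, R 4.3.3) in the 4 libraries, with Benjamini-Hochberg adjustment over all 13480 genes that passed filterByExpr and a threshold of 0.05. The change against 1.5-fold was tested with glmTreat. A fit to all 20 libraries (14343 genes) gave the other comparisons and the differences between them. All p-values and adjusted p-values are edgeR's unless DESeq2 is named. CPM values are TMM-scaled over the 4 libraries, and SD is over 2 libraries. Single log2 ratios of a pair used a pseudocount of 0.5 CPM. Spans, symbols and sequences are from RefSeq, GRCm38.p6.

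The members and gene lists were chosen with earlier results of these data known. Genes named are the 12 highest and 12 lowest by fold past both fits without overlap and with a mean of at least 1 CPM, the 8 largest rises and falls in mean CPM, up to 4 called members of each list by fold with that mean, and a short set always given. A few genes that this rule names are not reported here. Others are said to be chosen after their values were seen, or complete a list. Alternatives were other library sets, a replicate block, DESeq2 1.42.0, RLE size factors, other filters and each library left out.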

Additional observations from a re-analysis of the deposited data

Results flagged for a closer look

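In 14 cases a named gene moved one way in both replicate pairs here and the opposite way in another setting, without overlap of the libraries in either. The log2 fold changes of the other setting are from the 20-library fit. The tests of the difference from control-grown cells of passage 25 and from Cr(VI)-grown cells of passage 20 did not pass for any gene in edgeR. For the difference from control-grown cells of passage 25, DESeq2 passed Gsta2 (adjusted p = 0.00285) and Gm10639 (adjusted p = 0.012) among these genes. The differences from passage 25 Cr(VI)-grown and recovered cells were not tested.

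For 2 genes of the glutathione transferase cluster that were higher with B[a]P here, the direction was opposite in control-grown cells of passage 25, where the log2 fold change was -0.50 for Gsta2 and -0.19 for Gm10639. Nr1h4, the bile acid receptor FXR, fell here, at -0.60, and was 1.25 in control-grown cells of passage 25, 0.15 in Cr(VI)-grown cells of passage 20 and 1.23 in Cr(VI)-grown cells of passage 25. Arnt, lower here, was 0.28 in control-grown cells of passage 25. The histone gene H2ac19 was -0.14 there, against a rise here.

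In Cr(VI)-grown cells of passage 25 the histone genes H3c13, H3c14 and H3c15, higher here, stood at -1.05, -0.50 and -0.77, and gene ID 100861531 stood at -1.41. In Cr(VI)-grown cells of passage 20, Alb stood at 0.15 and Fga at 0.63, both lower here, although Fga lay under 1 CPM there. Scd2, a fatty acid desaturase that was lower here, stood at 0.43 in recovered cells.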

How the results depend on the processing

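The count of 8133 genes changed by B[a]P depended mostly on which libraries set the spread. It was 177 with all 20 libraries, 1248 with the 8 libraries of passage 20, and 2231 for the change against 1.5-fold, while DESeq2 gave 6550 and RLE size factors 8098. Leaving out each of the 4 libraries in turn gave 5904 to 9382, and 1860 to 2808 for the 1.5-fold count. The common biological coefficient of variation was 5.79% in the 4 libraries and 47.7% in all 20. The count past both fits was 2 to 6 with 1 library left out, where the lone library of a group is assumed to vary like the rest. Equal replicate numbers did not pair these libraries (r = 0.06 over 13480 genes for the replicate differences of the B[a]P and DMSO groups). With a replicate block the count was 8442 in 4 libraries and 1917 in all 20, and 1888 past both fits. That block in all 20 libraries turned the call of, among others, Cyp1b1 (adjusted p = 0.0129), Tiparp (0.00225), Adh7 (2.29e-04), Gsta4 (1.36e-04) and Mdm2 (0.018), which missed the threshold there without it. For the difference between passages DESeq2 called 11 genes against 0 in edgeR, and with the replicate block edgeR called 0, with 1334 at an unadjusted p under 0.05. For the difference between growth histories the block gave 0, with 339 at an unadjusted p under 0.05. Of 177 genes named by rule, 137 lost the call with all 20 libraries, 82 with the 8 of passage 20 and 63 with all 20 and the block, 3 in DESeq2 and 0 to 6 with 1 library left out. None changed direction under any of these. The median log2 fold change of all genes stayed between 0.00 and 0.02. The cause of these losses was not tested. Genes with a few counts in a library, such as Gm10639, Rhof and Nckap5, have the least certain folds.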
